A study of Homo sapiens with 6 samples.

Results

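Chromatin accessibility was examined by ATAC-seq at 4 genes of RNA processing and ribosome production: SNRPF, CCDC124, NOP56 and PABPN1. ATAC-seq reads mark where the Tn5 transposase could cut the DNA, so the number at a region measures how accessible it is. Members were the regions whose nearest gene is one of the 4. There were 4 such regions among 591 listed, 2 of 323 in the DMSO table (SNRPF and CCDC124) and 2 of 268 in the ATRA table (NOP56 and PABPN1). None of the 4 had a region in both tables, and 11 of all 569 listed genes (1.93%) did. A change of their response with treatment was not analysed here.

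The cells were NB4, an established acute promyelocytic leukaemia line with the PML-RARA fusion, which matures towards granulocytes when given all-trans retinoic acid (ATRA). Knockdown cells expressed 1 of 2 SMARCD2-specific hairpins, shRNA1 or shRNA2, and the other cells were labelled as control. SMARCD2 belongs to the SWI/SNF (BAF) chromatin remodelling complexes. Undifferentiated cells were kept in DMSO and differentiated cells in 1 µM ATRA, with 50000 cells per condition. Per treatment there were 3 libraries: 1 control, 1 with shRNA1 and 1 with shRNA2. The hairpins stood in as replicates of the knockdown, and the spread between controls was not measured. The labels name no separate cultures, so the hairpin spread cannot be split into hairpin effects, culture differences and technical variation. For the DMSO control the description field names ATRA while the title gives DMSO, and the title was followed. No listed region was nearest to SMARCD2, and the regions were selected, so neither the depletion nor the identity of the cells was checked here.

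The 4 proteins act at different steps of making and using RNA. SNRPF is a core Sm protein, part of the ring that assembles on spliceosomal small nuclear RNAs. PABPN1 binds the poly(A) tail in the nucleus and stimulates poly(A) polymerase. NOP56 is a core protein of box C/D small nucleolar ribonucleoproteins, which methylate ribosomal RNA in the nucleolus with the enzyme fibrillarin. CCDC124 is a ribosome-binding protein associated with idle ribosomes. Such genes are active in nearly all dividing cells, and their promoters are usually open.

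The promoters of the 4 genes are shown because each region overlaps its gene and all 4 regions were higher on the authors' fold change scale. Overlap was common, at 249 of the 323 listed regions in DMSO and 218 of the 268 in ATRA. Each sequence is the 250 bases before the RefSeq start of build GRCh38.p14, plus strand, with motif matches in capitals. RefSeq gives PABPN1 2 starts, and the upstream one was used. The accessible regions are in build GRCh37.p13. No annotation of that build was used, so whether a region covers this window, an exon or an intron was not analysed here.
SNRPF, chr12:95858702-95858951: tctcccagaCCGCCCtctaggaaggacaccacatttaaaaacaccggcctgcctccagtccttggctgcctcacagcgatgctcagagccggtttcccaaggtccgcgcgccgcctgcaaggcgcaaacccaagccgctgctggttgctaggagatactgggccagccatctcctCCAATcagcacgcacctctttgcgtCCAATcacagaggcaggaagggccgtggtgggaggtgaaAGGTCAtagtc
CCDC124, chr19:17932765-17933014: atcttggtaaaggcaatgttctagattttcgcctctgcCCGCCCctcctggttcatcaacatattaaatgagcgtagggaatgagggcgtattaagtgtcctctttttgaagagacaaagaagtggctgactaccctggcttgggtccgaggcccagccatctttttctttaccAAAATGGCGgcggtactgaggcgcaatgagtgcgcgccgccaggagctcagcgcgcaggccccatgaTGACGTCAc
NOP56, chr20:2652382-2652631: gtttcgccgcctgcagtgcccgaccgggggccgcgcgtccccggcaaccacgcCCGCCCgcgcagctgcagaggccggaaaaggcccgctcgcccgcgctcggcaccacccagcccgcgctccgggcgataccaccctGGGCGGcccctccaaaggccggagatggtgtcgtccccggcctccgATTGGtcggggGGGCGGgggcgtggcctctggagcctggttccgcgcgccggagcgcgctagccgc
PABPN1, chr14:23321207-23321456: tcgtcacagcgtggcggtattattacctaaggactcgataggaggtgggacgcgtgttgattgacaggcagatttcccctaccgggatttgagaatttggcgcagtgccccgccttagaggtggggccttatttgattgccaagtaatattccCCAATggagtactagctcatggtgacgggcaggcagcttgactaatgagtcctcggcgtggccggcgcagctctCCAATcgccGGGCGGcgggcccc

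Matches were sought on both strands for 8 motifs, which were chosen after the sequences were seen. The CCAAT box (CCAAT) was present in 3 of the 4 windows, those of SNRPF, NOP56 and PABPN1, and in 32.8% of the 22047 windows of protein-coding genes. The GC box (GGGCGG) was present in all 4, and in 53.7% of those windows. SNRPF alone of the 4 held the nuclear receptor core motif AGGTCA (10.5% of windows), with its first base 11 bases before the start. CCDC124 alone held the YY1 core AANATGGCG (1.55%) and the cAMP response element TGACGTCA (2.00%), 76 and 9 bases before the start. None of the 4 windows held the TATA box TATAAA (9.04%), the E-box CACGTG (7.35%) or the ETS core CCGGAAG (10.6%). The listed matches did not overlap one another. A match is a string of letters, not a measured binding site. The NOP56 window was the richest in G and C, at 78.0% against a median of 62.0% over protein-coding windows, and it held 37 CpG dinucleotides against a median of 16. The other windows held 53.2% (CCDC124), 57.6% (PABPN1) and 60.4% (SNRPF) G and C, and 13 to 18 CpG.

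In RefSeq 6 further genes lie within NOP56: 5 small nucleolar RNA genes and MIR1292. PABPN1 shares its locus with the readthrough gene BCL2L2-PABPN1, and SNRPF and CCDC124 have 0 overlapping genes. Neighbouring genes that do not overlap were not analysed here. Accessibility has no strand, so a region cannot be assigned to one gene of such a pair.

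The authors selected the listed regions by an unadjusted p under 0.005 for knockdown against control, and the 4 genes were picked from those tables as well-covered regions. The direction and size of that contrast therefore chose the members. They are given as a description without a test. On the scale of the authors' log2 fold changes all 4 regions were higher in the knockdown, in tables where 65.9% (DMSO) and 79.1% (ATRA) of all listed regions were higher. The scale of the authors' normalized counts was set on the listed regions alone. On that scale the 2 DMSO regions stayed higher and the 2 ATRA regions were lower, and there 65.9% and 69.0% of regions were higher. In bulk libraries, more open cells and more open copies per cell cannot be told apart.

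The spliceosomal gene SNRPF had its region at chromosome 12, 96252511 to 96252972, 462 bp wide and overlapping the gene. In DMSO it held 111 reads with shRNA1, 142 with shRNA2 and 55 in the control. Scaled to the library sizes behind the authors' fold changes, as CPM (reads relative to the effective library size), these were 8.07, 9.65 and 4.78. Both hairpins lay above the control. The knockdown mean was 8.86 ± 1.11 CPM (SD, n = 2) and the ratio to the control was 1.86 (95% exact counting interval 1.38 to 2.53). In the deposited normalized counts the libraries held 98.2, 117 and 66.0, and the ratio was 1.64 (1.22 to 2.23). shRNA2 was 1.19 times shRNA1, with a counting interval that includes equal levels (0.926 to 1.55).

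The region of CCDC124, the ribosome-binding protein gene, lay at chromosome 19, 18043356 to 18044009, 654 bp wide and overlapping the gene. It held 96 reads with shRNA1, 129 with shRNA2 and 49 in the control in DMSO. The values in CPM were 6.98, 8.76 and 4.26, again with both hairpins above the control. The knockdown mean was 7.87 ± 1.26 CPM (SD, n = 2), and the ratio was 1.85 (1.36 to 2.58). The normalized counts were 84.9, 107 and 58.8, a ratio of 1.63 (1.19 to 2.27). Here shRNA2 was 1.26 times shRNA1, again with an interval that includes equal levels (0.956 to 1.65). The authors' log2 fold change was 0.89 for both SNRPF and CCDC124 in the authors' deposited table.

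NOP56, the nucleolar gene, had the widest region of the 4, at chromosome 20, 2632713 to 2633681, 969 bp wide and overlapping the gene. In ATRA it held 199 reads with shRNA1, 294 with shRNA2 and 117 in the control. In CPM the values were 11.3, 17.0 and 8.14, so both hairpins lay above the control. The knockdown mean was 14.2 ± 4.06 CPM (SD, n = 2), and the ratio was 1.74 (1.42 to 2.14). The normalized counts turned this order round, at 158 with shRNA1, 210 with shRNA2 and 214 in the control. On that scale the ratio was 0.865 (0.706 to 1.07). The hairpins differed by more than counting error, shRNA2 being 1.51 times shRNA1 (1.26 to 1.82) on the fold change scale and 1.33 times (1.11 to 1.60) on the normalized count scale.

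PABPN1, the nuclear poly(A)-binding protein gene, had the most reads of all 268 ATRA regions. Its region lay at chromosome 14, 23790093 to 23790767, 675 bp wide and overlapping the gene. It held 302 reads with shRNA1, 437 with shRNA2 and 195 in the control, or 17.1, 25.3 and 13.6 CPM. Both hairpins were above the control, with a mean of 21.2 ± 5.78 CPM (SD, n = 2) and a ratio of 1.56 (1.33 to 1.84). In normalized counts the libraries held 239, 312 and 357, with both hairpins below the control. There the mean was 276 ± 51.4 (SD, n = 2) and the knockdown was 1.29-fold lower (1.09 to 1.51). The hairpins differed by more than counting error, shRNA2 being 1.48 times shRNA1 (1.27 to 1.72).

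**Figure D1:**
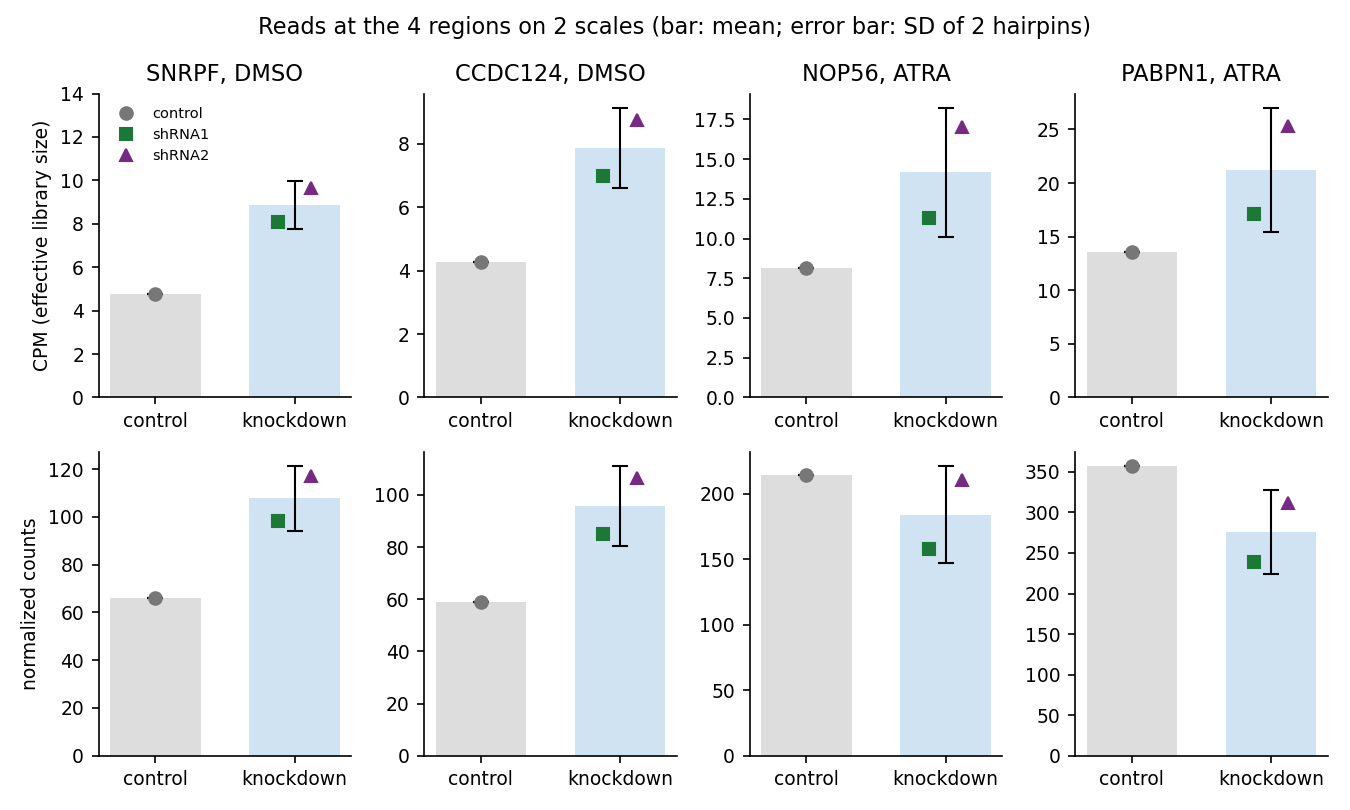
Accessibility at the 4 regions in each library, as CPM at the effective library sizes (upper row) and as the authors' normalized counts (lower row). Bars show the control value or the mean of 2 hairpins, points the libraries and error bars the SD of the hairpins. Knockdown bars stand above control in every upper panel, and below control in the lower panels of NOP56 and PABPN1.

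The scales differ by 1 constant per library. The deposited normalized count is the raw count times a factor, and each factor equalled the inverse of DESeq2's median-of-ratios size factor computed over the listed regions alone, with a largest gap of 0.0038% in DMSO and 0.0022% in ATRA. The ratio of knockdown to control is 1.14 times smaller on the normalized count scale than on the fold change scale in DMSO and 2.01 times smaller in ATRA, for every region alike. A ratio between 1 and 2.01 on the fold change scale in ATRA is therefore below 1 on the other. NOP56 and PABPN1 were among 27 ATRA regions that changed side in this way, and 0 DMSO regions did. Such size factors centre the ratios of the regions they are computed on. Here those regions were selected by p, and in ATRA 79.1% of them were higher by fold change. A region below the control in normalized counts is thus low relative to the listed regions.

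The hairpins taken singly gave the same order on the fold change scale. With either hairpin alone 213 regions were higher in DMSO and 212 in ATRA, as many as with both. The authors' limit on p chose regions by this contrast, so the order was common to the higher regions and does not set the 4 apart. With shRNA1 alone the ratio to the control was 1.69 (1.21 to 2.38) for SNRPF, 1.64 (1.15 to 2.36) for CCDC124, 1.39 (1.10 to 1.76) for NOP56 and 1.26 (1.05 to 1.52) for PABPN1. With shRNA2 alone it was 2.02 (1.47 to 2.81), 2.06 (1.47 to 2.92), 2.09 (1.68 to 2.61) and 1.87 (1.57 to 2.22). shRNA2 was the higher hairpin at all 4 regions, against 164 of the 323 DMSO regions (50.8%) and 159 of the 268 ATRA regions (59.3%, or 46.6% by normalized counts). Among regions covered at least as well, the members included, shRNA2 was higher in CPM at 21 of 38 in DMSO (274 reads or more). In ATRA it was higher at 4 of 5 (610 reads or more). In normalized counts shRNA1 alone gave a ratio of 0.736 (0.583 to 0.933) at NOP56, and shRNA2 alone gave 0.980 (0.789 to 1.23). At PABPN1 the corresponding ratios were 0.671 (0.558 to 0.807) and 0.874 (0.737 to 1.04).

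**Figure D2:**
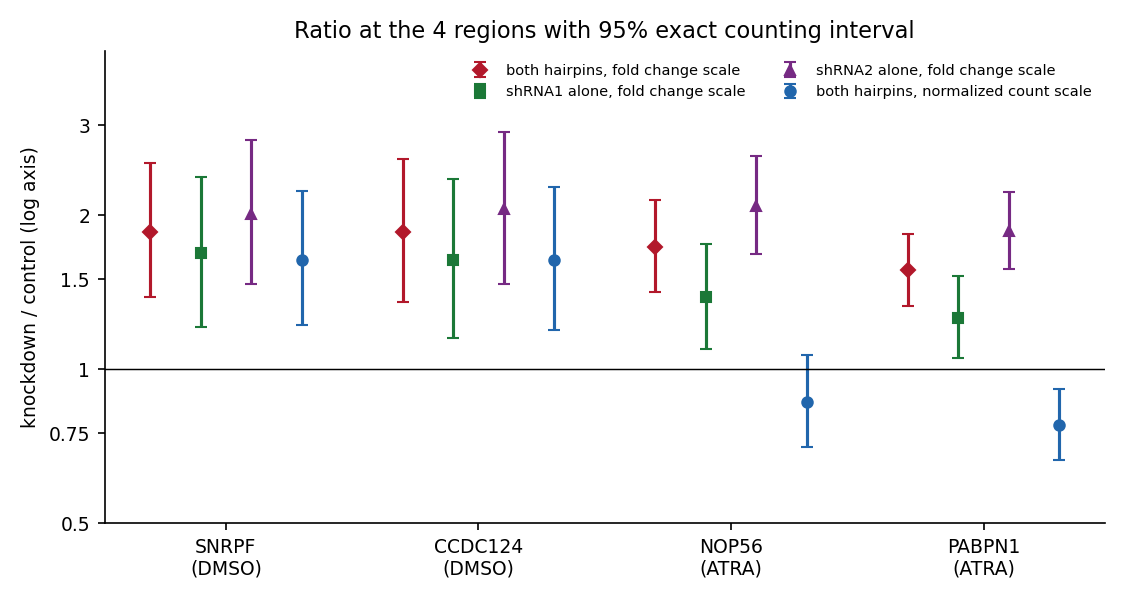
Ratio of knockdown to control at the 4 regions on a log axis, for both hairpins together and each alone on the fold change scale, and for both together on the normalized count scale. Bars are 95% exact counting intervals and the line marks a ratio of 1. The normalized count ratios are 1.64 and 1.63 for SNRPF and CCDC124, and 0.865 and 0.778 for NOP56 and PABPN1.

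The 4 regions were well covered and wide for their tables. By reads in the 3 libraries together, SNRPF (308) ranked 35 and CCDC124 (274) ranked 38 of 323, where the median region had 37. NOP56 (610) ranked 5 and PABPN1 (934) ranked 1 of 268, where the median was 33. By width SNRPF ranked 40, CCDC124 24, NOP56 5 and PABPN1 14, against median widths of 141 bp in DMSO and 149 bp in ATRA. Coverage was part of how the genes were picked, and a wider region collects more reads.

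The changes were among the smallest listed as higher. A small change reaches the authors' limit on p only with many reads. The members were picked as well covered, so their low ranks go with that choice. In the authors' deposited table PABPN1 had a log2 fold change of 0.64, the smallest of the 212 higher regions in ATRA. NOP56 had 0.80, the rank 7 from the smallest, and the median higher region had 3.60. SNRPF and CCDC124 ranked 6 and 5 from the smallest of the 213 higher regions in DMSO, where the median was 6.09. Of those higher regions 112 in DMSO and 101 in ATRA had 0 control reads, so the medians depend on the prior count of the authors' fit. The unadjusted p-values in the authors' deposited table (edgeR) were 0.00184 for SNRPF, 0.00332 for CCDC124, 0.00147 for NOP56 and 0.00440 for PABPN1. PABPN1 was thus the nearest of the 4 to the limit of 0.005, and regions beyond it were not analysed here.

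Of the 38 DMSO regions with at least 274 reads in the 3 libraries, the level of CCDC124, 6 were higher in the knockdown (15.8%) and 32 lower. SNRPF had the largest log2 fold change of those 6, at 0.89, and their median was 0.75. In ATRA 5 regions had at least 610 reads, the level of NOP56. All 5 were higher by the authors' fold change (100%), and 0 of the 5 by normalized counts (0.0%). These classes were set at the members' own coverage after the values were seen, so nothing is read from them about the members.

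**Figure D3:**
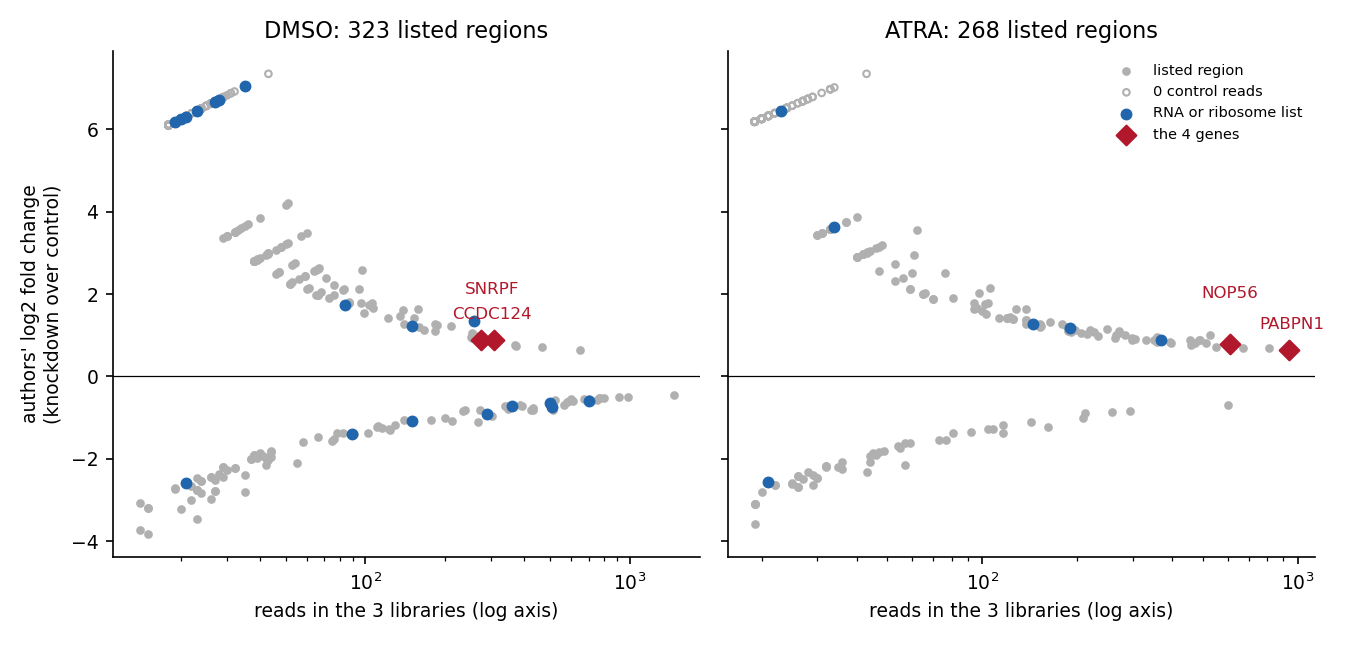
Authors' log2 fold change (knockdown over control) against the reads in the 3 libraries (log axis) for the 323 DMSO and 268 ATRA regions. Red diamonds mark the 4 genes, blue points other genes of the RNA and ribosome lists, grey points the remaining regions, and open circles regions with 0 control reads. Blue points with a log2 fold change above 6 also had 0 control reads. The 4 genes lie at the well-covered, small-change end of the higher regions, and PABPN1 is the point with the most reads in ATRA.

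The regions most like each member were found by the distance between pairs of values, log2 of control reads plus 1 and the log2 fold change, over the 3 libraries of the treatment. The nearest to SNRPF was CCDC124 (distance 0.164), followed by SDSL and PIN4. SDSL had 110, 110 and 47 reads (shRNA1, shRNA2, control) and was 1.89-fold higher, and PIN4 had 95, 115 and 44 and was 1.93-fold higher. The nearest to CCDC124 were SDSL (0.0667), PIN4 (0.162) and then SNRPF (0.164). NOP56 was nearest to RNASET2 (231, 261 and 123 reads, 1.65-fold higher), RNF170 and SEL1L. PABPN1 was nearest to MYLIP (312, 335 and 165 reads, 1.61-fold higher), SEL1L and RNASET2. By normalized counts these ATRA neighbours were below the control, with ratios from 0.805 (MYLIP) to 0.821 (RNASET2 and RNF170). This follows from the matching, since they were chosen for a like fold change and the scales differ by the same factor for every ATRA region.

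The wider pathways were read from 9 lists of 899 genes for splicing, RNA ends, export and decay, ribosome production, ribosomal proteins and translation. In DMSO 20 of these genes had a listed region, SNRPF and CCDC124 included, 12 higher and 8 lower (60.0% higher, against 65.9% of all listed regions). The median log2 fold change was 1.06 in the lists and 2.39 over all listed regions. With 0-control regions set at their lower bound against 3 control reads, the medians were 1.06 and 1.36. In ATRA 8 genes were listed, NOP56 and PABPN1 included, 7 higher and 1 lower by fold change, where 79.1% of all listed regions were higher. By normalized counts 4 were higher and 4 lower, where 69.0% were higher. The median was 1.03 against 2.35 over all listed regions, and 1.03 against 1.46 with the bounds. Without the 4 genes, which were picked as higher and well covered, DMSO had 10 higher and 8 lower (55.6% higher) with a median of 1.29, also with the bounds. ATRA then had 5 higher and 1 lower with a median of 1.23, and 4 higher and 2 lower by normalized counts. Of the 28 list genes 0 were in both tables, against 1.93% of all listed genes. No set was tested, since the tables are selected by p. All listed regions together named 319 genes in DMSO and 261 in ATRA. The share of all genes that had a listed region was not worked out, so the number of list genes found is not read as a response.

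In splicing, SNRPF was the 1 listed gene of 55 for Sm, LSm and small nuclear ribonucleoprotein proteins. Among 147 splicing factor genes, DMSO regions were lower at AQR, an intron-binding helicase, and RBFOX2, a regulator of alternative exons. AQR held 38, 43 and 69 reads and was 2.11-fold lower (1.51 to 2.94). RBFOX2 held 72, 92 and 124 reads in a region of 100 bp and was 1.87-fold lower (1.47 to 2.38). ESRP1, an epithelial splicing regulator 5828 bp from its region, had 14, 5 and 0 reads. Against a floor of 3 control reads, with the knockdown reads taken as counted, it was at least 2.56-fold higher, and the 95% exact lower limit, which covers them too, was 1.88. In ATRA the U2AF1 region, at the gene for the small subunit that reads the 3′ splice site, held 152, 148 and 67 reads. It was 1.84-fold higher (1.41 to 2.44), but its ratio was 0.919 (0.703 to 1.22) on the normalized count scale. MBNL3, an alternative splicing regulator 1348 bp from its region, had 16, 7 and 0 reads, at least 3.16-fold higher against that floor (exact limit 2.37, or 1.18 by normalized counts).

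At RNA ends and in decay the regions went both ways. PAPOLG, which codes for a nuclear poly(A) polymerase, held 109, 113 and 35 reads in DMSO and was 2.56-fold higher (1.79 to 3.77). PAIP2, a repressor of the cytoplasmic poly(A)-binding protein, held 160, 144 and 204 reads and was 1.66-fold lower (1.38 to 1.99). CNOT2, a subunit of the CCR4-NOT deadenylase, held 104, 111 and 143 reads and was 1.65-fold lower (1.32 to 2.04). PARN, a poly(A)-specific ribonuclease gene, had 7, 14 and 0 reads, at least 2.83-fold higher against the floor (exact limit 2.10).

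Among 194 genes for nucleolar and ribosome production factors, 3 were listed in DMSO and 2 in ATRA. WDR75, a small-subunit processome gene, held 66, 62 and 22 reads in DMSO and was 2.35-fold higher (1.49 to 3.88). ESF1, a nucleolar factor gene, had 7, 21 and 0 reads, at least 3.77-fold higher against the floor (exact limit 2.87). NOL3, named as a nucleolar protein but known as an apoptosis repressor, held 15, 28 and 46 reads and was 2.65-fold lower (1.71 to 4.11). TWISTNB, a subunit of RNA polymerase I, was the 1 list gene lower in ATRA by fold change, with 4, 2 and 15 reads in a region 2901 bp away, 6.07-fold lower (2.23 to 19.1), or 12.2-fold lower by normalized counts.

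Of 89 cytosolic ribosomal protein genes, each table listed 1. RPL27A held 156, 151 and 194 reads in DMSO and was 1.56-fold lower (1.30 to 1.88). RPL37A held 73, 87 and 29 reads in ATRA and was 2.27-fold higher (1.52 to 3.50), with a ratio of 1.13 (0.759 to 1.74) on the normalized count scale. MRPL37, a mitochondrial ribosomal protein gene, held 83, 41 and 21 reads in ATRA and was 2.43-fold higher (1.52 to 4.07), or 1.21-fold (0.759 to 2.03) on the normalized count scale. MRPL19 had 22, 11 and 1 reads 6020 bp from the gene, and its ratio of 13.6 (2.28 to 553) rests on that 1 control read. By normalized counts it was 6.77 (1.13 to 275).

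Of 123 translation genes 4 were listed in DMSO, CCDC124 included, and 0 in ATRA. Of 77 other helicase and transfer RNA modification genes, 4 were listed in DMSO and 0 in ATRA. These small counts were not set against the share of all genes listed, so no difference between the treatments is read from them. EIF3K, an initiation factor subunit gene, had 7, 16 and 0 reads, at least 3.10-fold higher against the floor (exact limit 2.32). YBX3, a cold-shock domain protein gene, had 12, 8 and 0, at least 2.69-fold higher (exact limit 1.99). BTF3, part of the nascent polypeptide-associated complex, had 0, 6 and 15 reads 1246 bp from the gene and was 6.19-fold lower (2.27 to 19.5). DDX3X, a helicase gene of translation initiation, held 28, 47 and 9 reads and was 3.37-fold higher (1.68 to 7.65). DDX50, a nucleolar helicase gene, held 201, 236 and 267 reads and was 1.51-fold lower (1.29 to 1.77). The transfer RNA modification genes PUS10 (12, 15 and 0 reads) and YRDC (20, 15 and 0) were at least 3.64-fold and 4.71-fold higher against the floor (exact limits 2.76 and 3.63).

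**Figure D4:**
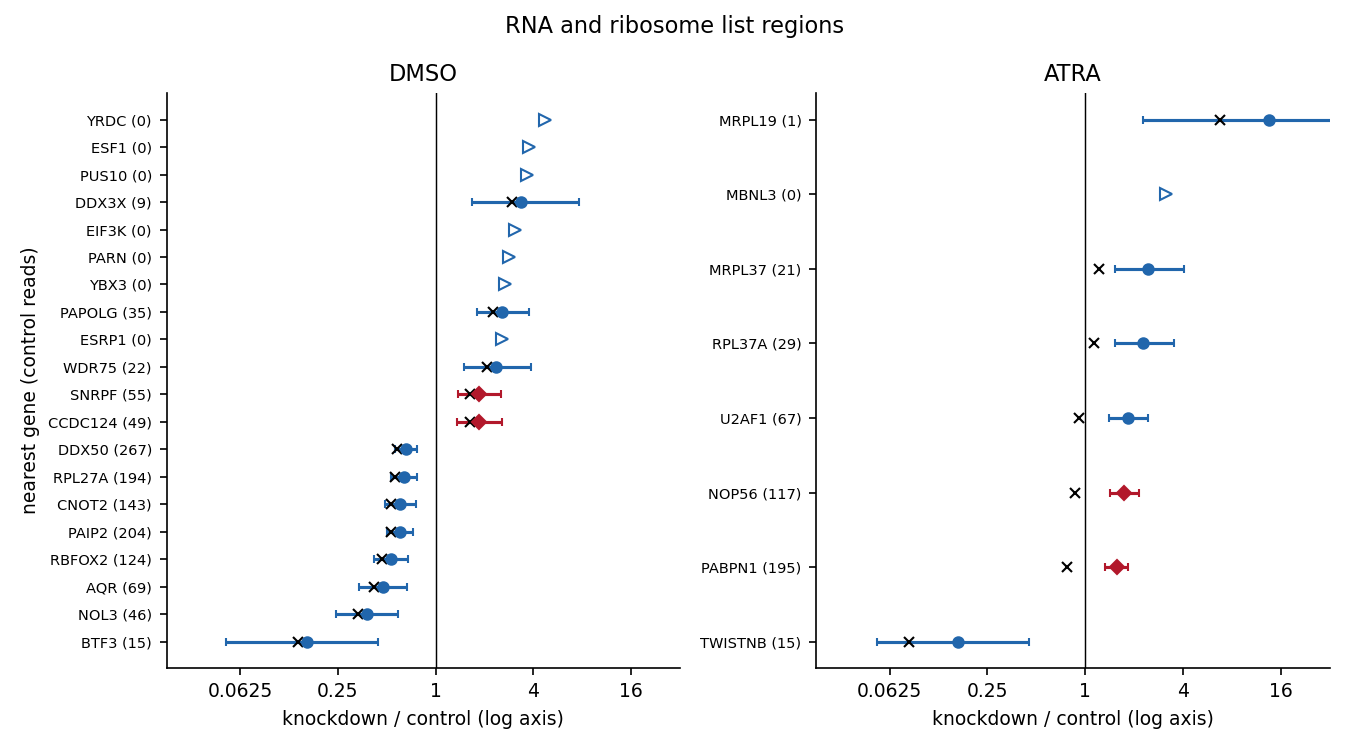
Ratio of knockdown to control (log axis) for the listed regions of the RNA and ribosome lists, with control reads in brackets. Diamonds (the 4 genes) and filled circles (other list genes) are on the fold change scale with 95% exact counting intervals, open triangles are bounds against 3 control reads where the control had 0, and crosses are ratios on the normalized count scale. The interval of MRPL19 runs past the axis. In DMSO 12 regions lie right of 1 and 8 left. In ATRA the crosses of U2AF1, NOP56, PABPN1 and TWISTNB lie left of 1, and TWISTNB lies left on the fold change scale too.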

How the data were processed

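The tools named in the submitters' processing notes are STAR, MACS2, edgeR, bcl2fastq and Picard (2.5.0), with build GRCh37.p13. What each did, and how peaks, the Tn5 offset and duplicates were handled, is not stated in any source used here. Per treatment the authors deposited 1 table. Per the file headers, it holds raw read counts per region, normalized counts (a signal), a log2 fold change, a mean log2 CPM, an F score and an unadjusted p-value. The listed regions have p under 0.005 and lie at most 9992 bp from a gene.

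Library totals were not used here. Effective library sizes (11497000 to 17632000) were recovered by least squares from the authors' log2 values with edgeR 4.0.16 in R 4.3.3, which returned their fold changes within 0.0066. The step was also run on simulated counts whose fold changes came from the same model, which cannot show whether the authors used that model. The ratio of summed knockdown reads to control reads carries a 95% Clopper-Pearson interval (SciPy 1.17.1), which covers counting error only. Against 0 control reads the bound uses 3 reads in the control library. No test was run, since the regions were selected on this contrast. Alternatives were TMM, DESeq2 1.42.0, normalized counts, a prior count of 2, a minimum count of 10 and single hairpins. The hairpin libraries differed by more than counting error (chi-square per degree of freedom 1.94 in DMSO and 2.22 in ATRA). The members and lists were chosen with earlier results of these data known. List genes are named where a direction holds 10 or fewer. The authors' deposited log2 fold change was added as an alternative after seeing the data.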

Additional observations from a re-analysis of the deposited data

How the results depend on the processing

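The log2 ratios were 0.89 for SNRPF, 0.89 for CCDC124, 0.80 for NOP56 and 0.64 for PABPN1. NOP56 and PABPN1 turned to -0.21 and -0.36 on the normalized count scale and with DESeq2 size factors, which are the same scale, to -0.087 and -0.24 with TMM factors from the listed regions, and to -0.22 and -0.37 in the DESeq2 fit. SNRPF moved by more than the hairpin spread to 0.71 on the normalized count scale, with DESeq2 size factors and in the DESeq2 fit. CCDC124 also went to 0.71 on the normalized count scale. That lay within its wider hairpin spread (SD 0.23 against 0.18 for SNRPF, in log2). With TMM factors SNRPF and CCDC124 both moved to 1.14. Leaving out 1 hairpin gave 0.76 to 1.01 for SNRPF, 0.71 to 1.04 for CCDC124, 0.47 to 1.06 for NOP56 and 0.34 to 0.90 for PABPN1. List regions in ATRA went from 7 higher and 1 lower to 4 and 4 on the normalized count scale, and to 5 and 0 within 1 kb of the gene, where fewer regions are counted. The TMM and DESeq2 factors rest on regions selected by p. No paired analysis was possible because each treatment has 1 control library. The DMSO intervals rest on 49 and 55 control reads.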

Other observations

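The 27 ATRA regions that were higher on the fold change scale and lower on the normalized count scale had at least 40 control reads, with a median of 75, and a median width of 675 bp against 149 bp over all 268. Their largest log2 fold change was 1.01. Regions change side only where the ratio is small, and a small ratio reaches the authors' limit on p only with many reads, so this coverage follows from the selection. Besides NOP56 and PABPN1 they included 1 other region of the RNA and ribosome lists, that of U2AF1.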
